A study of Bos taurus with 12 samples.

Results

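CD2, CD3D, CD3E, CD5, CD247, LCK, PTPRC, NKG7, PPP3CC and IKBKE, 10 genes grouped here as T and NK cell genes, were followed through the endometrium of heifers in the cycle before an embryo transfer. Every probe set that the annotation of the array assigned to one of these symbols and to no other gene was included, which gave 21 of the 24,016 probe sets measured and 10 of the 9155 genes named. T cells recognize antigen with a receptor whose signal passes inward through the CD3 chains and CD247, the zeta chain. The kinase LCK phosphorylates these chains, the phosphatase PTPRC (CD45) keeps LCK ready to act, and calcium then activates calcineurin while other branches lead to NF-kappa-B. NK cells share CD2, CD247, LCK and NKG7 with T cells, and lymphocytes of both kinds reside in the lining and in the stroma of the ruminant endometrium. The label covers the genes unequally. PTPRC is made by nearly all leukocytes, CD5 also by some B cells, and PPP3CC, a catalytic subunit of calcineurin, and IKBKE, a kinase of the NF-kappa-B and interferon pathways, are not restricted to lymphocytes.

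All samples came from estrous-synchronized, cyclic Simmental heifers. Their uterine wall was stroked with a brush passed through the cervix on days 3 and 7 of the cycle. Day 7 is the age of the cycle at which a blastocyst is usually transferred. The study calls its design longitudinal, so pools of both days may share animals. The sample records do not say which animals each pool holds. An in vitro-produced blastocyst was transferred on day 7 of the next cycle, and the earlier biopsies were sorted afterwards by whether an embryo was visible by ultrasonography on day 28. Animals with an embryo formed the high receptivity groups HR3 and HR7, and animals without one the low receptivity groups LR3 and LR7, which the sample records call receptive and non receptive. Each of the 12 arrays measured RNA pooled from 5 biopsies, with 3 pools in each of the 4 groups, so the spread between arrays is that between pools and not between animals. A low receptivity label rests on 1 transfer and also takes in losses that arise from the embryo. In such brush samples, fewer cells of a type and less RNA per cell cannot be told apart. Of the uterine epithelium markers 12 of 14 were measured and 10 exceeded the array median in every pool, and of the stroma markers 16 of 18 were measured and 11 did so, so RNA of both tissues was present.

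Of the 10 genes 6 were less abundant on day 7 than on day 3, whereas no difference between the receptivity groups passed the test. Values are log2 signals, 1 unit of which is a doubling, and they compare arrays for a given probe set but not the levels of different genes. A probe set was called at an adjusted p (Benjamini-Hochberg over all probe sets, limma) under 0.05. Over both receptivity groups 6 of the 21 probe sets fell from day 3 to day 7, those of CD2, CD247, IKBKE, NKG7, LCK and PTPRC, and none rose. For comparison, 14.0% of all probe sets were called lower on day 7, and among the brightest probe sets of all named genes it was 15.8% lower and 15.3% higher. Each of the 6 was the brightest probe set of its gene, the one with the highest mean over the arrays. The median difference was -0.64 for the 10 brightest probe sets, against -0.02 for the brightest probe sets of all named genes. It was -0.26 for all 21 and -0.04 for all probe sets on the array.

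The choice of genes bears on this count. CD247, LCK, PTPRC, IKBKE and PPP3CC had been picked on these same arrays as T-cell receptor signaling genes that were lower on day 7 in the low receptive animals, and NKG7 as a transcript that was lower on day 7 in the high receptive ones. PPP3CC had been picked through another probe set. The study left out probe sets regulated in both groups. NKG7 had thus been picked for a change in HR only and the others for one in LR only. Neither the direction of these genes with the day nor its size in HR against LR is therefore independent evidence. Of these 6 genes 5 were called over both groups. Of the other 4 genes, CD2, CD3D, CD3E and CD5, only CD2 was called. With the pool number as a block CD3D (adjusted p = 0.0121), CD3E (adjusted p = 0.0182) and CD5 (adjusted p = 0.0222) were called over both groups too. These calls rest on a block that joins pools of the same number in all groups, HR with LR included. HR and LR pools hold different animals, so that tie cannot be a pairing. Pools of HR3 and LR3 with the same number correlated at -0.455 to -0.074. Whether the pool number pairs the days within HR or LR was not settled, and pools of HR3 and HR7 with the same number were hardly correlated.

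**Figure D1:**
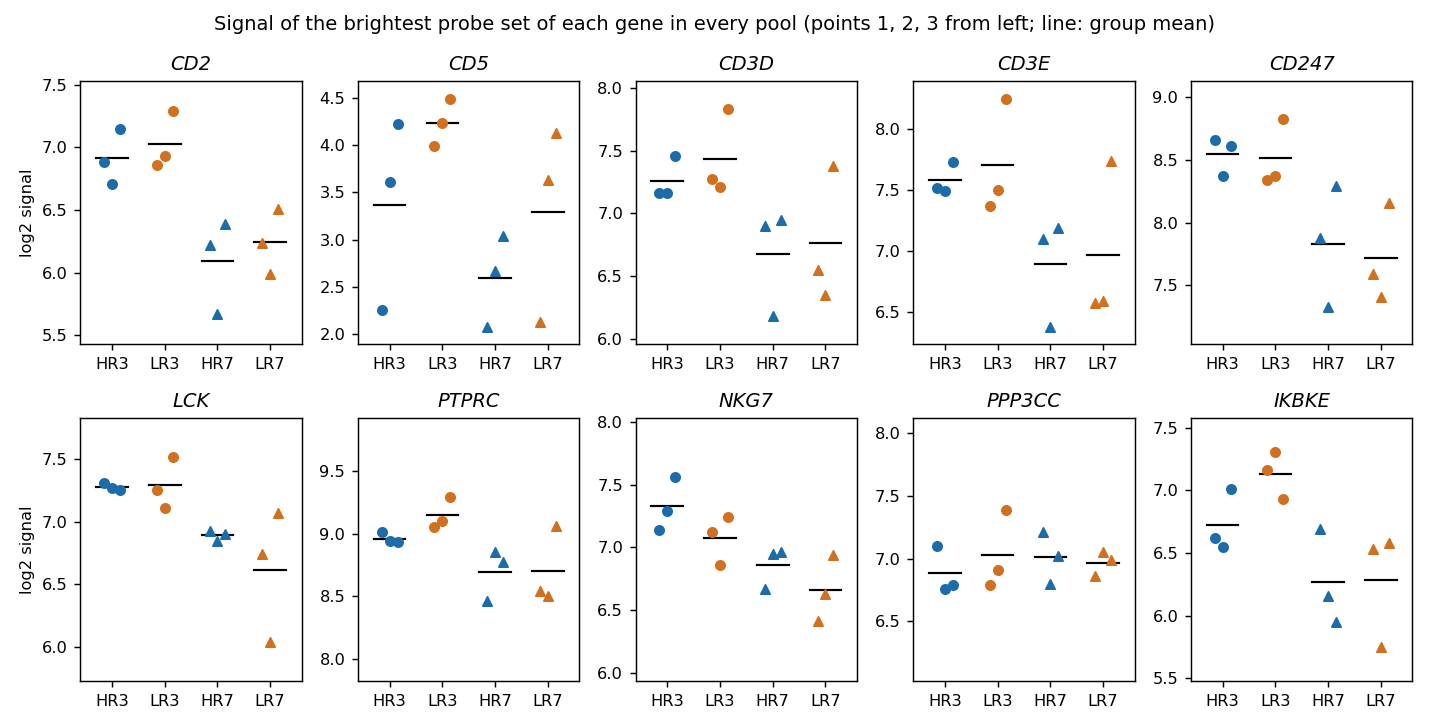
Log2 signal (vertical axis, a 2-unit span or more in each panel) of the brightest probe set of each gene in the 3 pools of each group, with circles for day 3, triangles for day 7, blue for HR, orange for LR and a line at the group mean. The day 7 pools of CD2, CD247 and LCK all lie below the day 3 pools, while those of PPP3CC lie among them.

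CD2, an adhesion receptor of T and NK cells that binds CD58 on other cells, showed the lowest adjusted p of the 10 genes. Its signal was 6.88, 6.71 and 7.15 in the HR3 pools and 6.86, 6.93 and 7.29 in the LR3 pools. By day 7 it stood at 6.22, 5.67 and 6.39 in the HR7 pools and 6.24, 5.99 and 6.51 in the LR7 pools. Every pool of day 7 thus lay below every pool of day 3, and within a day the receptivity groups overlapped. The fall over both groups was -0.80 ± 0.15 (SE, 3 pools in each group), or 1.74-fold, with an adjusted p of 0.00478 in limma. CD2 was also called within HR (-0.82 ± 0.22, adjusted p = 0.0396) and within LR (-0.78 ± 0.22, adjusted p = 0.0466), where 5.44% and 5.21% of all probe sets were called lower on day 7. It was the only one of the 10 genes called within either group, and with 1 pool left out it stayed called in 5 of 12 fits in HR and in 3 of 12 in LR, but in 12 of 12 over both groups. The fainter probe sets of CD2, with means of 4.70 and 2.92, differed by -0.14 and 0.23 between the days and were not called, and one of them was at 0, the floor of the scale, in HR3 pool 3.

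CD5, a receptor that dampens signaling through the antigen receptor, was the only gene whose brightest probe set lay below the median of the array on all arrays. Its signal was 2.26, 3.61 and 4.22 in the HR3 pools and 3.99, 4.23 and 4.49 in the LR3 pools. By day 7 it stood at 2.08, 2.67 and 3.04 in the HR7 pools and 2.13, 3.63 and 4.13 in the LR7 pools. Pools of the same group lay up to 2.0 apart, and the days overlapped. The difference between the days was -0.85 ± 0.40 (SE) and did not pass (adjusted p = 0.148), although it was larger than that of any called member. It moved by more than 1.5 times with either of the covariates given at the end.

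Of the chains that carry the signal of the antigen receptor, CD247 was the most clearly lower on day 7. Its signal was 8.66, 8.37 and 8.61 in the HR3 pools and 8.34, 8.37 and 8.83 in the LR3 pools. By day 7 it stood at 7.88, 7.33 and 8.29 in the HR7 pools and 7.59, 7.41 and 8.16 in the LR7 pools. All pools of day 7 lay below all pools of day 3, and all 12 lay above the median of their array. CD247 fell by 0.75 ± 0.19 (SE) over both groups, 1.69-fold, with an adjusted p of 0.0156. Within HR (-0.71, adjusted p = 0.118) and within LR (-0.79, adjusted p = 0.0822) it did not pass. With the pool number as a block CD247 was called in HR and in LR, so that 2 genes were called in each in place of 1. In LR it was also called with an intensity trend or a pseudocount of 16, and with either covariate given at the end in neither group.

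CD3D and CD3E encode the delta and epsilon chains of CD3, and the genes are neighbours in the RefSeq annotation of the bovine genome. The signal of CD3E was 7.52, 7.49 and 7.73 in the HR3 pools, 7.37, 7.50 and 8.25 in the LR3 pools, 7.10, 6.38 and 7.19 in the HR7 pools and 6.57, 6.59 and 7.74 in the LR7 pools. That of CD3D was 7.16, 7.16 and 7.46 in the HR3 pools, 7.27, 7.21 and 7.83 in the LR3 pools, 6.90, 6.18 and 6.95 in the HR7 pools and 6.55, 6.35 and 7.38 in the LR7 pools. In HR every day 7 pool lay below every day 3 pool for both genes, whereas in LR the third pool of day 7 reached into the range of day 3. The differences over both groups, -0.72 ± 0.25 for CD3E (adjusted p = 0.0598) and -0.63 ± 0.21 for CD3D (adjusted p = 0.0527), did not pass the threshold. Without LR7 pool 3 both were called, at adjusted p values of 0.0120 and 0.0137. The second probe set of CD3D, with a mean of 6.29, differed by -0.14 and was not called.

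**Figure D2:**
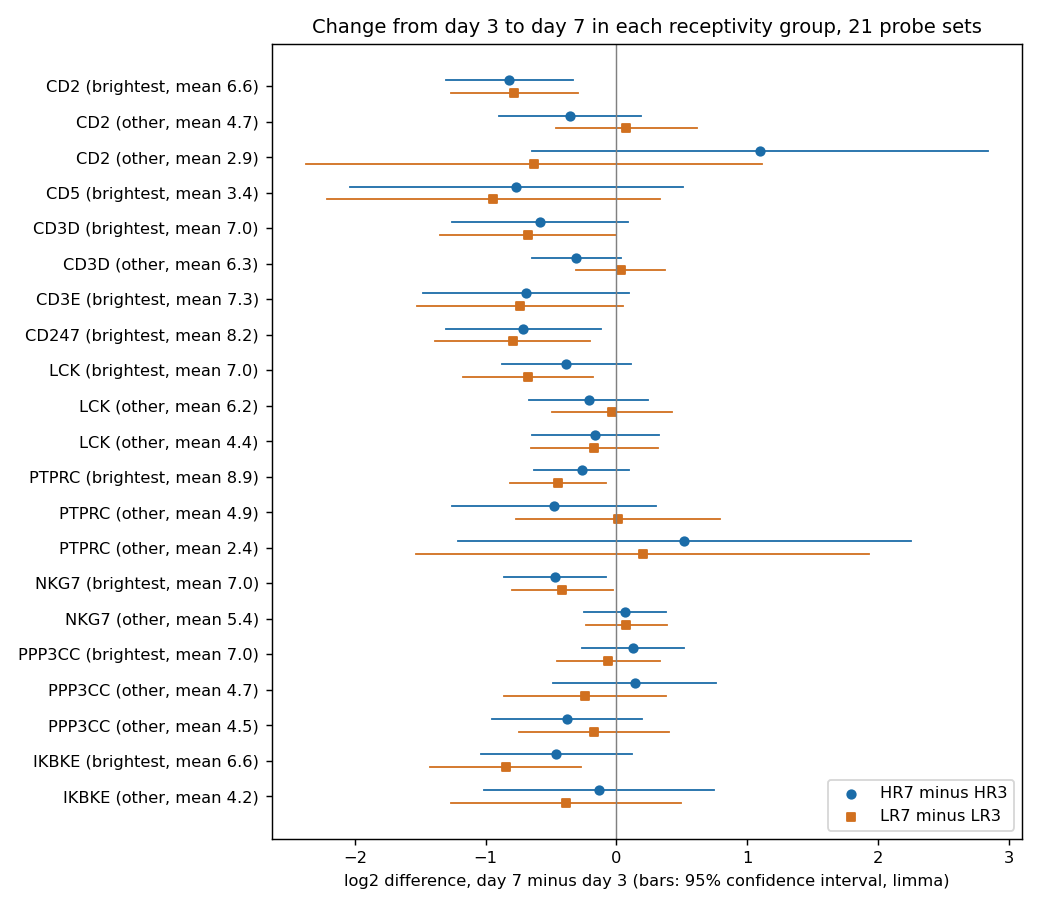
Difference in log2 signal between day 7 and day 3 (horizontal axis) for all 21 probe sets, with the 95% confidence interval from limma, blue circles for HR and orange squares for LR, named by gene and by mean log2 signal. The intervals of the brightest probe sets of CD2, CD247 and NKG7 exclude 0 in both groups, and the HR and LR intervals of each probe set overlap.

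LCK, the kinase that starts signaling at the antigen receptor, had the closest pools of the genes in HR. Its signal was 7.31, 7.27 and 7.25 in the HR3 pools and 7.25, 7.11 and 7.52 in the LR3 pools. By day 7 it stood at 6.93, 6.85 and 6.90 in the HR7 pools and 6.74, 6.04 and 7.07 in the LR7 pools. The pools of day 7 all lay below those of day 3, with an SD of 0.031 in HR3, 0.040 in HR7 and 0.53 in LR7, where pool 2 was the lowest of all. LCK fell by 0.53 ± 0.16 (SE), 1.44-fold, with an adjusted p of 0.0320. It was called in 4 of the 12 fits that leave out a pool and in neither of the fits with a covariate given at the end. The model shares 1 estimate of the spread among the 4 groups, so within HR the difference of -0.38 had an adjusted p of 0.303. The fainter LCK probe sets, with means of 6.16 and 4.40, differed by -0.12 and -0.17 and were not called.

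PTPRC, the phosphatase found on nearly all leukocytes, showed the smallest of the called differences. Its signal was 9.01, 8.94 and 8.93 in the HR3 pools, 9.05, 9.10 and 9.29 in the LR3 pools, 8.46, 8.85 and 8.77 in the HR7 pools and 8.54, 8.5 and 9.06 in the LR7 pools. The pools of HR7 lay below those of HR3, while LR7 pool 3 overlapped LR3. The fall over both groups was -0.36 ± 0.12 (SE), 1.28-fold, with an adjusted p of 0.0463, just inside the threshold. It was called in 1 of the 12 fits that leave out a pool, that without LR7 pool 3. Its fainter probe sets, with means of 4.90 and 2.36, differed by -0.23 and 0.36 between the days without a call, and one stood at the floor in HR3 pool 1.

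The genes further downstream were PPP3CC and IKBKE. PPP3CC had signals of 7.10, 6.76 and 6.79 in the HR3 pools, 6.79, 6.91 and 7.39 in the LR3 pools, 7.21, 6.80 and 7.02 in the HR7 pools and 6.86, 7.05 and 6.99 in the LR7 pools. The days overlapped, and the difference was 0.03 with a 95% confidence interval from -0.25 to 0.31 (adjusted p = 0.879). Its other probe sets, with means of 4.72 and 4.48, differed by -0.05 and -0.28 and were not called. A probe set without a symbol in the annotation, which tables of the study call PPP3CC, differed by -0.40 over both groups (adjusted p = 0.0555).

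IKBKE had signals of 6.62, 6.55 and 7.01 in the HR3 pools and 7.16, 7.31 and 6.93 in the LR3 pools. By day 7 it stood at 6.69, 6.16 and 5.95 in the HR7 pools and 6.53, 5.75 and 6.58 in the LR7 pools. In LR the days were separate, and in HR pool 1 of day 7 lay above the lower pools of day 3. IKBKE fell by 0.65 ± 0.18 (SE) over both groups, 1.57-fold, with an adjusted p of 0.0261 and a call in 7 of the 12 fits that leave out a pool, and its second probe set, with a mean of 4.18, differed by -0.26 and was not called.

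NKG7, a protein of the cytotoxic granules of NK cells and killer T cells, had signals of 7.14, 7.29 and 7.56 in the HR3 pools, 7.12, 6.86 and 7.24 in the LR3 pools, 6.67, 6.95 and 6.96 in the HR7 pools and 6.41, 6.63 and 6.94 in the LR7 pools. The HR7 pools lay below the HR3 pools, and in LR pool 3 of day 7 overlapped pool 2 of day 3. NKG7 fell by 0.44 ± 0.12 (SE), 1.36-fold, with an adjusted p of 0.0248 and a call in 7 of the 12 fits that leave out a pool, while its fainter probe set, with a mean of 5.41, differed by 0.07 and was not called.

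Counted without a model, the day 7 pools lay wholly below the day 3 pools for 3 of the 21 probe sets (CD2, CD247 and LCK), against 7.08% of all probe sets. Within HR this held for 8 of 21, the brightest of CD2, CD247, CD3D, CD3E, LCK, NKG7 and PTPRC and a fainter one of CD2, against 18.6% of all. Within LR it held for 4 of 21, CD2, CD247, IKBKE and LCK, against 15.7% of all.

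**Figure D3:**
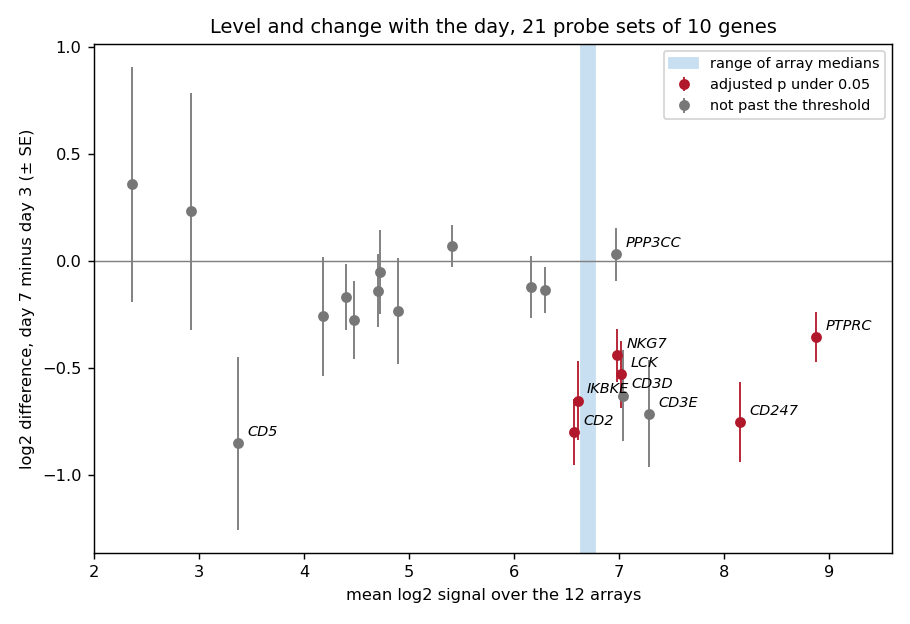
Mean log2 signal over the 12 arrays (horizontal axis) and difference between day 7 and day 3 over both receptivity groups with its SE (vertical axis) for the 21 probe sets, red where the adjusted p was under 0.05, with the brightest probe set of each gene named and the range of the array medians shaded. The 6 called probe sets have means of 6.57 to 8.88, and of the 11 fainter ones none was called.

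The 11 fainter probe sets had means of 2.36 to 6.29 and lay below the median of the array on all arrays. None of them was called with all pools in the fit, and without LR3 pool 2 the fainter PPP3CC probe set with a mean of 4.48 was called lower on day 7 (-0.43, adjusted p = 0.0449). When all probe sets of a gene were averaged, 2 of 10 genes were called over both groups, CD247 and LCK, and the difference of CD2 shrank to -0.24 (adjusted p = 0.448). CD247, CD3E and CD5 have 1 probe set each.

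No difference between high and low receptivity passed for any of the 21 probe sets. At day 3 the count was 0 of 21, where 0.00416% of all probe sets were called. At day 7 it was 0 of 21 against 0.00833%, and over both days 0 of 21 against 0.00416%. In all 3 comparisons the number of members with an unadjusted p under 0.05 was also 0, with limma as well as with an ordinary linear model. At day 3, the pools of HR3 and LR3 did not overlap for 1 probe set, that of PTPRC, which was lower in HR3 by 0.19 (adjusted p = 0.845), against 10.2% of all probe sets without overlap. At day 7 no member was without overlap, against 8.16%.

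The precision sets what could have been seen. Over both days the difference between HR and LR was -0.13 for CD2 with a 95% confidence interval from -0.48 to 0.21, -0.10 for PTPRC with one from -0.36 to 0.16, and 0.23 for NKG7 with one from -0.05 to 0.50. For CD3E the interval ran from -0.66 to 0.46 and for CD5, the least precise, from -1.69 to 0.11. Over both days the interval took in a difference as large as that between the days for CD5 and NKG7, but not for CD2 or CD3E. Within a day it did so for CD3E too, with intervals from -0.91 to 0.66 at day 3 and from -0.86 to 0.71 at day 7. The order of the group means of CD2 was LR3 (7.03 ± 0.23, SD), HR3 (6.91 ± 0.22), LR7 (6.25 ± 0.26) and HR7 (6.09 ± 0.38), and that of CD247 was HR3 (8.55 ± 0.15), LR3 (8.51 ± 0.27), HR7 (7.83 ± 0.48) and LR7 (7.72 ± 0.39). In both orders only the step between the days was larger than the SD of the neighbouring groups.

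Whether the change with the day differed between HR and LR was tested with the interaction of receptivity and day, which was called for 0 of 21 probe sets, against 0.00416% of all, and no member had an unadjusted p under 0.05 in limma or in the ordinary linear model. The 9 genes other than PPP3CC each had a negative difference in both receptivity groups. LCK differed by -0.38 in HR and -0.68 in LR, IKBKE by -0.46 and -0.85, PTPRC by -0.27 and -0.45, and NKG7 by -0.47 and -0.41. LCK, IKBKE and PTPRC had been picked for a change in LR only and NKG7 for one in HR only. The order of HR and LR in these values was thus favoured by the choice of genes. For LCK the difference between the changes in HR and in LR was 0.29 with a 95% confidence interval from -0.41 to 0.99.

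**Figure D4:**
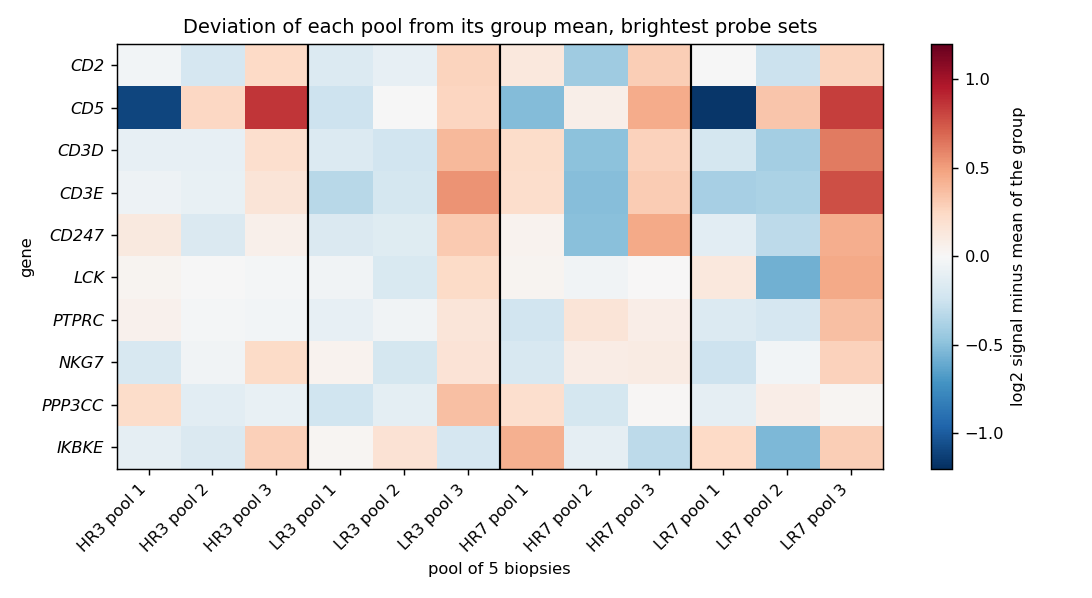
Deviation of the log2 signal of each pool from the mean of its group (colour, red above and blue below) for the brightest probe set of each gene in the 12 pools. The third pools of LR3 and LR7 are above their group mean for nearly all genes, and CD3D, CD3E and CD247 share the low value of HR7 pool 2.

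Pools of a group differed in the same direction for many of these genes. LR3 pool 3 was the highest of its group for 9 of the 10 brightest probe sets, and so was LR7 pool 3. HR3 pool 3 and HR7 pool 3 were each highest for 6 of 10, and LR3 pool 1, HR3 pool 2, HR7 pool 2 and LR7 pool 2 were each lowest for 6 of 10. For CD3E, LR3 pool 3 lay 0.54 and LR7 pool 3 lay 0.77 above the group mean, and HR7 pool 2 lay 0.51 below it. The summed signal of the B and plasma cell markers, on a log2 scale, was 11.34 in LR3 pool 3 and between 8.95 and 9.81 in the other pools. In LR3 pool 3 the sum came mostly from IGHM (10.06) and JCHAIN (10.37). POU2AF1 (5.02), MZB1 (6.73) and CD38 (5.52) were also higher there than in the other LR3 pools. The B cell markers CD79A (2.31) and MS4A1 (3.28) were instead lower there, and BLK (3.01) lay between the other LR3 pools. Most of the measured markers were thus highest in that pool of LR3, but not all. The part of this difference in the levels of the T cell genes was not tested.

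The profile of CD3E over the 12 arrays, each gene centred on its own mean, was matched most closely by CD3D, with a root mean square difference of 0.109, followed by CD52, a surface glycoprotein of lymphocytes (0.128), CCL5, a chemokine made by activated T and NK cells (0.155), LOC510988 (0.173) and TYW3, an enzyme of transfer RNA modification (0.180). CD247 had a difference of 0.196 from CD3E, CD2 one of 0.226, LCK one of 0.328 and PPP3CC one of 0.493. The profiles nearest to LCK were those of DNAJC22 (0.139), LRRC46 (0.143), DHRS12 (0.151), TAX1BP3 (0.153) and CPPED1 (0.157), none of which was in the lists of lymphocyte genes, and the nearest of the other members, PTPRC, stood at 0.229, with rank 127 among the probe sets with 1 symbol. In the same order from CD3E, CD247 ranked 10, CD2 17 and LCK 142. The arrays share the effect of the day, so these values describe likeness on these 12 arrays only.

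Other lymphocyte genes, in 8 lists, comprised 149 entries of which 97 were measured, and 19 of them (19.6%) fell and 9 (9.28%) rose from day 3 to day 7 over both groups, where 15.8% of all named genes fell and 15.3% rose. The cytotoxic and NK cell genes had the highest number of falls, with 7 of 16 measured lower, 1 higher and a median difference of -0.45. CTSW, a protease of killer cells, fell by 1.29 ± 0.22 (SE, adjusted p = 0.00258), perforin (PRF1) by 1.01 ± 0.22 (adjusted p = 0.00791) and the activating receptor KLRK1 by 0.54 ± 0.13 (adjusted p = 0.0142). CTSW lay between 7.91 and 8.52 in all pools of day 3 and between 6.42 and 7.58 in all pools of day 7. The death ligand FASLG instead rose by 0.64 ± 0.15 (adjusted p = 0.0120). The summed signal of the list ranged over 10.64 to 11.04 for HR3, 10.62 to 10.90 for LR3, 10.01 to 10.37 for HR7 and 9.86 to 10.39 for LR7, so the days did not overlap. The brightest genes weigh most in this sum, here KLRK1 (mean 8.82) and CTSW (mean 7.63), which are both among the falls.

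Of the other genes of the antigen receptor and its coreceptors 1 of 11 measured fell, CD8B, a chain of the coreceptor of killer T cells, by 0.72 ± 0.21 (adjusted p = 0.0287), and none rose. CD7 (-0.71, adjusted p = 0.0864), PDCD1 (-0.24, adjusted p = 0.0677) and CD4 (-0.25, adjusted p = 0.0889) did not pass. Among 16 genes of proximal signaling FYN, a kinase related to LCK, fell by 0.77 ± 0.24 (adjusted p = 0.0399) and DGKA, which breaks down the second messenger diacylglycerol, rose by 1.88 ± 0.18 (adjusted p = 0.000151). LAT, an adaptor that LCK's pathway phosphorylates and that was looked up because it had been picked on these arrays together with LCK, differed by 0.15 (adjusted p = 0.314), and PIK3R4, picked in the same way, by 0.01 (adjusted p = 0.954).

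Of the calcineurin and NFAT genes 2 of 8 rose, against 15.3% of all named genes, FKBP1A by 0.49 (adjusted p = 0.00748) and the transcription factor NFATC3 by 0.30 (adjusted p = 0.0300), and none fell. Of 12 genes of the IKK and NF-kappa-B branch 2 rose, the kinase PRKCQ by 1.90 (adjusted p = 0.00167) and IKBKG by 0.45 (adjusted p = 0.00426), and 2 fell, IKBKB by 0.56 (adjusted p = 0.00444) and TANK by 0.30 (adjusted p = 0.0471). These downstream genes are used in many cell types.

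The transcription factors of lymphocytes fell in 4 of 9 cases and none rose. ETS1 fell by 0.90 ± 0.10 (adjusted p = 0.000382), LEF1 by 1.67 ± 0.30 (adjusted p = 0.00343), IKZF3 by 0.60 ± 0.16 (adjusted p = 0.0234) and TOX by 0.79 ± 0.22 (adjusted p = 0.0263), and ETS1 and LEF1 are also expressed outside lymphocytes. Cytokine receptors and adhesion genes were divided, with 3 of 17 lower and 3 higher. IL15, which sustains NK cells, fell by 0.59 ± 0.13 (adjusted p = 0.0108) and ITGAE, an integrin of lymphocytes within epithelia, by 0.39 ± 0.10 (adjusted p = 0.0140), whereas the chemokine receptor CXCR4 rose by 1.1 ± 0.17 (adjusted p = 0.00182) and ITGB2, an integrin chain of all leukocytes, by 0.78 ± 0.18 (adjusted p = 0.0123). Of the pan-leukocyte genes 1 of 8 fell, CORO1A by 0.63 ± 0.19 (adjusted p = 0.0343).

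**Figure D5:**
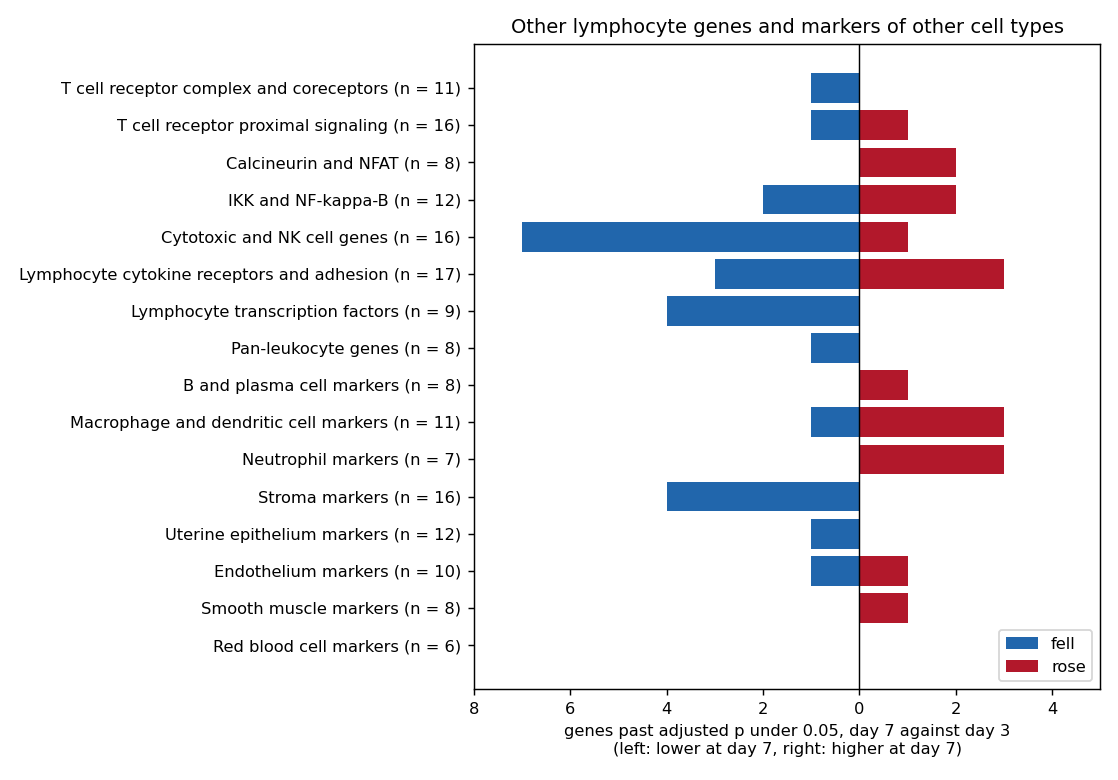
Number of genes in each list (vertical axis, with the number measured) that passed an adjusted p under 0.05 between day 7 and day 3 over both receptivity groups, falls to the left in blue and rises to the right in red. Cytotoxic and NK cell genes have 7 falls and 1 rise, lymphocyte transcription factors 4 falls and no rise, and neutrophil markers 3 rises and no fall.

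Some markers of other cells moved with the day as well, and several of the counts are at or below the 15.8% of named genes that fell and the 15.3% that rose. Stroma markers fell in 4 of 16 cases and none rose, with a summed signal of 14.38 to 14.69 in HR3, 13.49 to 14.29 in LR3, 13.47 to 14.46 in HR7 and 13.16 to 13.73 in LR7. Neutrophil markers rose in 3 of 7 cases (13.99 to 14.02 in HR3, 13.85 to 14.02 in LR3, 14.51 to 14.84 in HR7 and 14.20 to 14.44 in LR7) and macrophage and dendritic cell markers in 3 of 11 with 1 fall (11.17 to 11.74, 11.02 to 11.40, 11.33 to 12.42 and 11.42 to 11.57 in the same order). The 3 neutrophil rises were S100A12, S100A8 and S100A9, while CXCR1 (adjusted p = 0.105) and the other markers were not called. LTF, at 13.80 to 14.01 in all pools, made up most of the summed neutrophil signal. B and plasma cell markers rose in 1 of 8 cases, endothelium markers rose in 1 and fell in 1 of 10, smooth muscle markers rose in 1 of 8, uterine epithelium markers fell in 1 of 12 and red blood cell markers did not change in any of 6. No measured marker in these lists was at 0 on all arrays.

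The stroma and the synthesis of the labelled target were entered as covariates. With the mean of the stroma markers in the model 1 of the 21 probe sets was called over both groups, IKBKE (-0.90, adjusted p = 0.0482), while CD2 differed by -0.65 (adjusted p = 0.0903), CD247 by -0.46 (adjusted p = 0.255) CD3E by -0.36 (adjusted p = 0.526), CD5 by -0.24 (adjusted p = 0.810) and LCK by -0.55 (adjusted p = 0.164). The signal of the 5 prime probe set of the dap control minus that of its 3 prime probe set, a spiked-in transcript, which falls where less of the target reaches its far end, ranged from -2.64 to -1.37 in HR3, -2.83 to -2.42 in LR3, -2.36 to -1.54 in HR7 and -1.76 to -1.28 in LR7. With it in the model CD2 alone was called (-0.80, adjusted p = 0.0323), CD247 differed by -0.70 (adjusted p = 0.0925), NKG7 by -0.52 (adjusted p = 0.0546), LCK by -0.42 (adjusted p = 0.188) and CD5 by -1.42 (adjusted p = 0.0575). The part of the stroma or of target synthesis in the lower signals was not tested beyond these fits.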

How the data were processed

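The deposited table holds log2 signals that the authors obtained by the PLIER algorithm of Affymetrix Expression Console, following globally scaled GCOS 1.1.1 scans, of 12 GeneChip Bovine Genome Arrays. Values from 0 to 14.07 were used as deposited. Leaving out 112 control probe sets left 24,016, of which 13,292 have 1 gene symbol in the platform annotation, 86 several and 10,638 none. Array medians were 6.64 to 6.77, and each array held 281 to 395 values of 0. The number of arrays limits the precision.

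All probe sets were fitted in limma 3.58.1 (R 4.3.3) with 1 mean per group, moderated standard errors and Benjamini-Hochberg adjustment within each of the 7 comparisons, called at an adjusted p under 0.05. The study's present calls were not used here, and no filter was applied, since a filter that asks for a high level in 1 group picks probe sets by their difference. Groups came from the sample records. The records do not say whether pools of both days hold the same animals, and the main fit treats the pools as independent. The p-values therefore measure the spread between these pools. The fit was tested on simulated data with known changes and noise drawn independently for each probe set and array. Real pools deviated together for many genes, so that test does not bear on the calls here. Tables and plots were made in Python 3.11.15 with pandas 2.3.3, numpy 2.4.6 and matplotlib 3.10.9.

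The genes, the 16 lists (175 of 249 entries matched a probe set by symbol, the rest had no probe set under that symbol) and the tests were chosen with earlier results of these data known. From each list at most 4 genes with the lowest p for the day are named, and for CD3E and LCK the 5 nearest profiles. LTF and the B and plasma cell markers that are named were chosen after their values were seen. A gene is represented by its probe set with the highest mean. Records number the pools 1 to 3 in each group. Deviations from group means of pools with the same number correlated at 0.204 to 0.511 between LR3 and LR7 and at 0.114 to 0.423 between HR7 and LR7. They correlated at -0.149 to 0.172 between LR3 and HR7, at -0.044 to 0.123 between HR3 and HR7 and at -0.455 to -0.074 between HR3 and LR3. Pools with different numbers reached 0.206 between LR3 and LR7 and 0.318 between HR7 and LR7, within the ranges for the same number. An animal is in either HR or LR, so the number cannot pair the same animals in HR7 and LR7. Whether it pairs pools of LR3 and LR7 was not settled. Alternatives covered filters, scaling, a pseudocount of 16, variance models, covariates, the pool number as a block, each pool left out and an adjusted p under 0.16, the false discovery rate to which the study's unadjusted threshold corresponded.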

Additional observations from a re-analysis of the deposited data

How the results depend on the processing

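Members called lower on day 7 numbered 1 in HR, 1 in LR and 6 over both groups. In HR the number was 0 with the dap or stroma covariate, a filter on the mean, the mean over the probe sets of a gene, an ordinary linear model or only the compared groups, 2 with the replicate block, alone or with the dap covariate, and 3 with the stand-in for present calls or an adjusted p under 0.16. In LR it was 0 with array weights, the dap or stroma covariate, the mean over probe sets, only the compared groups, an ordinary linear model or the block with the dap covariate, 2 with the block or the filter on the mean, 4 with an intensity trend or a pseudocount of 16, 5 with the stand-in and 6 at an adjusted p under 0.16. Over both groups it was 1 with either covariate or the block with the dap covariate, 2 with the mean over probe sets and 9 with the block alone. Leaving out 1 pool gave 0 to 1 in HR, 0 to 6 in LR and 2 to 8 over both groups. The 6 and the 8 came without LR7 pool 3, and over both groups 2 were called without HR3 pool 3 or LR3 pool 1, and 3 without any 1 of the HR7 pools or LR3 pool 3. CD2 and CD247 were called over both groups in 12 of 12 such fits, IKBKE and NKG7 in 7, LCK in 4 and PTPRC in 1. The receptivity comparisons and the interaction called 0 members under every alternative, and no called member changed sign. Calls over all probe sets, in either direction, moved too. In LR they numbered 2749 in the main fit, 1606 with the stroma covariate and 26 with the dap covariate. They numbered 405 with only the compared groups and 0 with the block and the dap covariate. With array weights (2478), the mean over probe sets (2363) or an ordinary linear model (2624) they changed less. Over both groups they numbered 6360, 2426 with the stroma and 3293 with the dap covariate. The filter on the mean left CD2, CD5 and IKBKE untested. The stand-in for present calls kept probe sets above the array median in all pools of any group, with an SD of at least 0.2. Of the 21 member probe sets 8 passed it, those of CD2 and IKBKE through LR3 only. Such a filter picks probe sets by their difference, so its counts are not evidence of a fall. Causes were not tested, except that fewer probe sets enter under a filter. Signals of the fainter probe sets near the floor limit what can be seen there.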

Other observations

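A further probe set has no symbol in the platform annotation and was therefore not among the 21, but tables of the study call it PPP3CC. Its log2 signal was 8.0, 7.61 and 7.58 in the HR3 pools, 7.75, 8.0 and 7.99 in the LR3 pools, 7.35, 7.6 and 7.62 in the HR7 pools and 6.99, 7.26 and 7.72 in the LR7 pools. The days differed by -0.40 over both groups (adjusted p = 0.0555, limma), by -0.59 in LR (adjusted p = 0.0763) and by -0.21 in HR (adjusted p = 0.540). It was not called in any of the 7 comparisons.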
